A study of Mus musculus with 18 samples.

Results

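The translation initiation factor genes are the autosomal mouse genes whose symbols begin with Eif1 to Eif6. Of 63 such symbols among the 37991 genes counted, 4 pseudogene symbols, 4 genes on the X or Y chromosome and 1 gene with a mean count under 10 were left out, which gave 54 genes. By role they comprised 13 subunits of eIF3, 12 cap-binding and helicase factors of the eIF4 group, 6 factors of start site selection, 5 subunits of eIF2B, 4 genes of eIF2 and tRNA delivery, 4 eIF2 kinases, 3 4E-BPs, 2 eIF5A genes and *Eif6*. The other 4 are the Argonaute genes, which act in microRNA silencing and met the rule through their older symbols *Eif2c1* to *Eif2c4*, so counts are also given for the 50 genes without them. All 54 passed the filter on low counts, and 37 of them share no exonic base with another gene.

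Initiation brings a small ribosomal subunit to the 5′ end of an mRNA and moves it to a start codon. eIF2 carries the initiator tRNA, eIF2B recharges eIF2 with GTP, and kinases that phosphorylate eIF2α block this recharging under stress. eIF3 holds the small subunit, while eIF4E binds the cap, eIF4G is the scaffold and eIF4A unwinds the RNA. 4E-BPs compete with eIF4G for eIF4E. Resting T cells make little protein, and activation is known to raise their rate of translation.

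The 18 RNA-seq libraries were made from splenic CD4+ T cells, enriched with magnetic beads, of male and female Tg4-H2u mice aged 6 to 12 weeks. The T cells of this strain express a transgenic TCR that recognizes a peptide of myelin basic protein. There were 6 groups of 3 biological replicates. Naive cells (N) came from mice given PBS, and tolerized cells (T) from mice given 7 doses of the 4Y peptide, raised step by step and then held at the highest. The last injection was PBS (N0 and T0) or 80 µg of peptide (NAg and TAg), and cells were taken 2 h later. In NPI and TPI, cells were instead cultured for 2 h with 20 ng/ml PMA and 2 µM calcium ionophore A23187. These groups have no culture without the drugs beside them, so drug and culture cannot be told apart in any comparison with PI. In such bulk samples, fewer cells of a type and less RNA per cell cannot be told apart either.

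Total counts ranged from 10758571 to 24119489 per library, highest after PI. The 9 markers of neutrophils, among them *Ngp*, *Camp* and *Elane*, were all higher in T0 than in N0, with summed normalized counts of 60.5 to 167 in N0 and 1749 to 3097 in T0. The 10 T cell markers were present throughout, with sums of 30450 to 69620. *Xist* was high in all N0 and NAg libraries, and the Y-linked gene *Ddx3y* was at 0 there and at 3177 to 3639 in NPI and 5330 to 5676 in TPI, so the sex of the mice and PI treatment cannot be told apart among naive cells. T0 replicates 1 and 2 and TAg replicate 3 also expressed *Ddx3y*.

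Printed here are promoter windows of *Eif4e*, *Eif4a1* and *Eif4g1*, from the cap-binding and helicase genes, which rose after Ag. That of *Eif5a2*, which did not pass the test after Ag, is printed beside them. All were picked among windows that hold the letters CACGTG. Windows of *Eif4a3*, *Eif4b*, *Eif4e2*, *Eif4enif1* and *Eif4g3*, which also rose after Ag, held no match. RefSeq windows were found for 43 of the 54 genes. The E-box CACGTG, which reads the same on both strands, was searched in the 300 bases from 250 before to 50 after each start site. It lay in 12 of 57 windows (21.05%), against 2349 of 32851 windows of all genes (7.15%). The 4 sequences below begin 250 bases before the start site, end 30 bases after it and show CACGTG in capitals.
Eif4e, chr3:138189982-138190261, + strand: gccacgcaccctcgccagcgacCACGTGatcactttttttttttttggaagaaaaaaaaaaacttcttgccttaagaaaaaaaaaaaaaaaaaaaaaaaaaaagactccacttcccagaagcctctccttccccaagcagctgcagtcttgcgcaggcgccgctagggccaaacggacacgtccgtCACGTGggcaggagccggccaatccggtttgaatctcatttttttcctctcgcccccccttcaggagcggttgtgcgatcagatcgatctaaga
Eif4a1, chr11:69485896-69486175, - strand: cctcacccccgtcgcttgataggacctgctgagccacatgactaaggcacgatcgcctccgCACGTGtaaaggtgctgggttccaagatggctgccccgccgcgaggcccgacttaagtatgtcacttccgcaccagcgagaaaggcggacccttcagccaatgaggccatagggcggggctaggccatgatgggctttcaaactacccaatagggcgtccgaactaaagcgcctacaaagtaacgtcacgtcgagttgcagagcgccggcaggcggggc
Eif4g1, chr16:20672550-20672829, + strand: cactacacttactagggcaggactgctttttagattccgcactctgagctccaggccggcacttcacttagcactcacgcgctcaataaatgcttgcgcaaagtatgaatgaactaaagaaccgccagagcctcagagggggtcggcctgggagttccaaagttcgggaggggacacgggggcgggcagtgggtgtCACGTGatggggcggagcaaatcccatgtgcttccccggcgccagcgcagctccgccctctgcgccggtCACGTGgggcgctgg
Eif5a2, chr3:28679949-28680228, + strand: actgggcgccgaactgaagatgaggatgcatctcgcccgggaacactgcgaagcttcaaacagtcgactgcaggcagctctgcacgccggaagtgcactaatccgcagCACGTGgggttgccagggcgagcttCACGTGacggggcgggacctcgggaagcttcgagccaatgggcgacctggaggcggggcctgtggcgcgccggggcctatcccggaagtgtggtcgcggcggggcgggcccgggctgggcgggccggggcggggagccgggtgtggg
Coordinates are those of NCBIM37 (mm9), found by exact match of the RefSeq sequence (GRCm38.p6). CACGTG began 228 and 64 bases before the start site of *Eif4e* (offsets -228 and -64), at -189 in *Eif4a1*, at -54 and 15 in *Eif4g1* and at -142 and -117 in *Eif5a2*. RefSeq gives 2 windows for *Eif4e*, and the one not printed holds no match. The other genes with it were *Eif1b*, *Eif3a*, *Eif3f*, *Eif3k*, *Eif4h* and *Eif5a*. Of these 10 genes, 7 were higher in NAg than in N0 (median log2 fold change 1.45), beside 26 of the 33 genes without it (median 1.06) and 32.1% of all tested genes. In TAg against T0, 8 and 26 were higher (29.9%) and 0 and 3 lower. With TMM scaling, 8 and 17 were higher in NPI than in N0 (28.6%) and 2 and 10 lower. In TPI against T0, 8 and 18 were higher (32.0%) and 2 and 9 lower. A match is a description of letters and not a mapped binding site.

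To find how these genes respond to Ag, NAg was compared with N0 and TAg with T0. Most of them rose in both cell states, and as a share of all counts they went from 0.876% to 0.895% in N0 to 1.68% to 1.73% in NAg, and from 0.821% to 0.835% in T0 to 1.51% to 1.58% in TAg. In NAg, 41 of 54 genes were higher (32.1% of all tested genes were) and 5 were lower (33.4%). In TAg, 42 were higher (29.9%) and 3 were lower (29.8%). The 54 genes had a median log2 fold change of 1.10 in NAg and 1.0 in TAg, beside 0 and -0.05 for all 17240 tested genes. With a 2-fold limit and an average normalized count above 50, 28 genes were higher in NAg (14.2% of tested genes) and 27 in TAg (12.1%). Without the Argonaute genes, 39 and 40 of 50 were higher and 3 and 2 lower. T cell markers moved the other way, with 9 of 10 lower in NAg and 8 of 10 in TAg, and their part in these results was not tested.

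**Figure D1:**
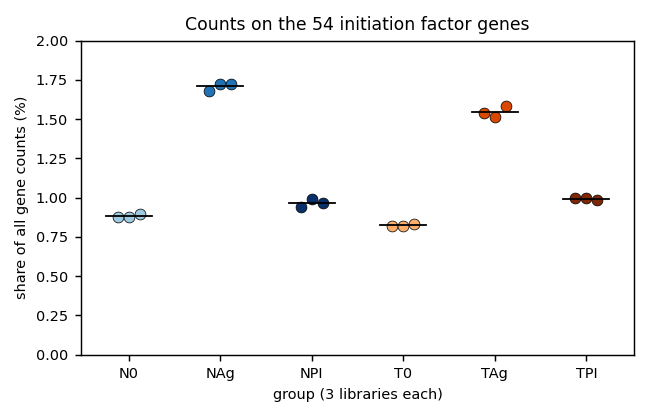
Share of all gene counts (%, y axis) that fell on the 54 genes in each library (points), with the group mean (line), for the 6 groups. The NAg libraries lie at 1.68% to 1.73% and the TAg libraries at 1.51% to 1.58%, above all other libraries.

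After PI the response was smaller and divided. In NPI, 32 of 54 genes were higher than in N0 (28.6% of all tested genes were) and 14 lower (32.7%), with 10 at least 2-fold higher (10.1%). In TPI, 34 were higher than in T0 (32.0%) and 13 lower (36.3%), with 19 at least 2-fold higher (13.3%). The median was 0.38 in NPI and 0.72 in TPI, beside -0.06 and -0.10 for all tested genes. Here the direction depends on the scaling. With library totals in place of TMM, the median of all tested genes moved to -0.41 in NAg, -0.39 in TAg, -0.65 in NPI and -0.91 in TPI, and the genes called higher and lower were 36 and 10 in NAg, 37 and 9 in TAg, 21 and 27 in NPI and 22 and 26 in TPI. The difference between the median of the 54 genes and that of all tested genes was 1.10, 1.06, 0.44 and 0.82 with TMM and 1.10, 1.06, 0.45 and 0.83 with library totals. Of the genes called, 10 in NPI and 8 in TPI took the opposite sign with library totals, against 1 each in NAg and TAg. The markers of neutrophils also moved after PI, with 2 of 9 higher and 5 lower in NPI than in N0 and 7 lower in TPI than in T0. Their sum was 64.5 to 172 in NPI and 398 to 676 in TPI. With levels of erythroid and myeloid markers as covariates, 26 genes were higher and 11 lower in NPI, and 29 and 10 in TPI. As neutrophil markers moved with PI, such a fit cannot separate marker levels from PI. The part of neutrophils in these results was not tested further.

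Across the 4 responses, 27 genes were higher in every one with TMM, of which 7 took the opposite sign in NPI or TPI with library totals. *Eif4ebp2* and *Eif2c4* were lower in every one. With TMM, 4 genes (*Eif2ak1*, *Eif2b1*, *Eif2b3* and *Eif2c3*) were higher after Ag and lower after PI in both cell states. *Eif2ak1* in TAg had a log2 fold change of -0.04 with library totals. That scaling also left 1 Argonaute gene called higher in NAg and in TAg, beside 2 with TMM. Of the eIF2 kinases it left 1 in each, beside 3 in NAg and 2 in TAg with TMM. *Eif2ak3* alone was lower after Ag and higher after PI in both.

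**Figure D2:**
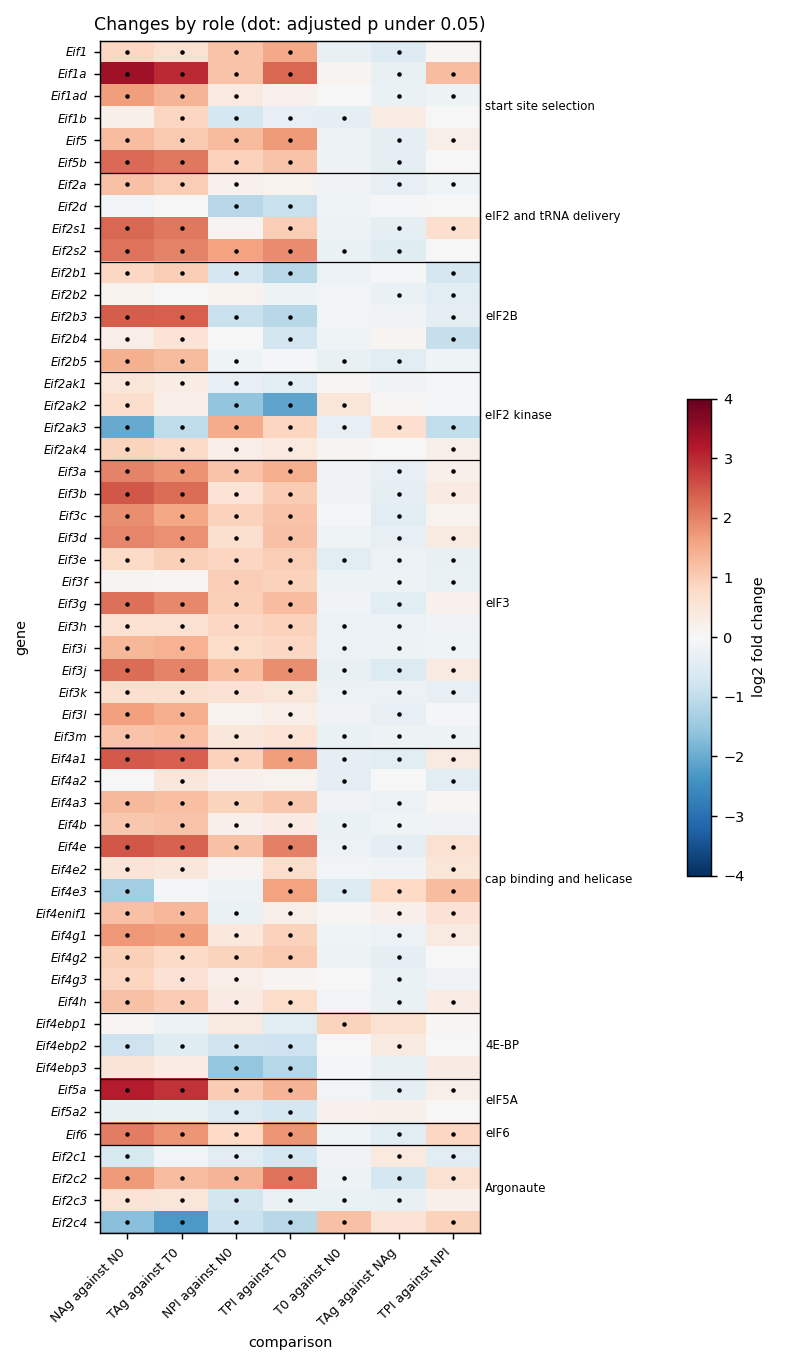
Log2 fold change (colour) of the 54 genes (rows, by role) in 7 comparisons (columns), with TMM scaling. Dots mark an adjusted p under 0.05. Ag columns are mostly red, PI columns are mostly red for eIF3, 3 of 5 eIF2B genes are called lower in each PI column, and with library totals 10 genes called in NPI and 8 in TPI change sign.

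Most cap-binding and helicase genes rose after Ag. *Eif4e*, which encodes the cap-binding protein, had normalized counts of 650, 690 and 685 in N0, 3645, 3978 and 3824 in NAg, and 1348, 1675 and 1508 in NPI. The tolerized libraries held 560, 539 and 610 in T0, 2831, 2947 and 3058 in TAg, and 2248, 2417 and 2274 in TPI. No stimulated library overlapped the unstimulated ones, and the log2 fold change was 2.50 ± 0.08 (SE, edgeR adjusted p = 9e-19) in NAg, 2.37 ± 0.08 in TAg, 1.16 ± 0.08 in NPI and 2.02 ± 0.08 in TPI. The helicase gene *Eif4a1* went from 3400, 4079 and 4082 in N0 to 20182, 21468 and 21390 in NAg, and from 2876, 2791 and 3120 in T0 to 15586, 15194 and 15776 in TAg. After PI it had 6839, 7540 and 7515 in NPI and 9301, 9255 and 9719 in TPI. These were 5.45-fold and 5.30-fold rises after Ag and 1.89-fold and 3.22-fold rises after PI. Its pseudogene *Eif4a-ps4* had 2.02% to 4.11% of the counts of *Eif4a1*, and reads of the pair may be shared.

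The paralog *Eif4a2*, a helicase gene that is also expressed in resting cells, did not follow *Eif4a1*. It had 8761, 8274 and 8710 in N0, 8269, 8545 and 9454 in NAg and 9322, 9638 and 10078 in NPI. Its counts in tolerized cells were 5923, 6038 and 7503 in T0, 8551, 9267 and 8656 in TAg and 7644, 7466 and 6526 in TPI. Of the 4 responses only that in TAg passed the test, with 0.44 ± 0.08. *Eif4a2* overlaps *Rfc4* and several snoRNAs. Per kilobase of exon, the highest mean level among the cap-binding and helicase genes was that of *Eif4a2* in N0 (1608 normalized counts per kb) and T0 (1215), and that of *Eif4a1* in NAg (4848) and TAg (3581).

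*Eif4g1*, the scaffold gene, had 5192, 5021 and 4898 in N0 and 15311, 17281 and 17209 in NAg, and 4267, 4453 and 4798 in T0 and 14238, 14044 and 14365 in TAg. The groups did not overlap, and the fold change was 3.30 in NAg and 3.15 in TAg. After PI it had 6812, 6626 and 6745 in NPI, a log2 fold change of 0.42 ± 0.07 with TMM and -0.16 with library totals, and 8973, 8314 and 8580 in TPI (0.94 ± 0.07). *Eif4a3*, *Eif4b*, *Eif4e2*, *Eif4enif1*, *Eif4g2*, *Eif4g3* and *Eif4h* were higher after Ag in both cell states, by 0.46 to 1.34 on the log2 scale. Thus 10 of the 12 cap-binding and helicase genes were higher in NAg and 11 in TAg.

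*Eif4e3*, which encodes an atypical cap-binding protein, was the exception. It had 1543, 1771 and 1522 in N0 and 545, 616 and 664 in NAg, a fall of 1.40 ± 0.12 on the log2 scale (edgeR adjusted p = 2.45e-09). In T0 it had 1237, 1029 and 1013 and in TAg 1118, 1137 and 899, which overlapped. After PI it had 1439, 1294 and 1505 in NPI, and 3752, 3499 and 2778 in TPI, a 3.06-fold rise over T0. It shares 75 exonic bases with *Foxp1* on the same strand, whose reads may be shared.

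**Figure D3:**
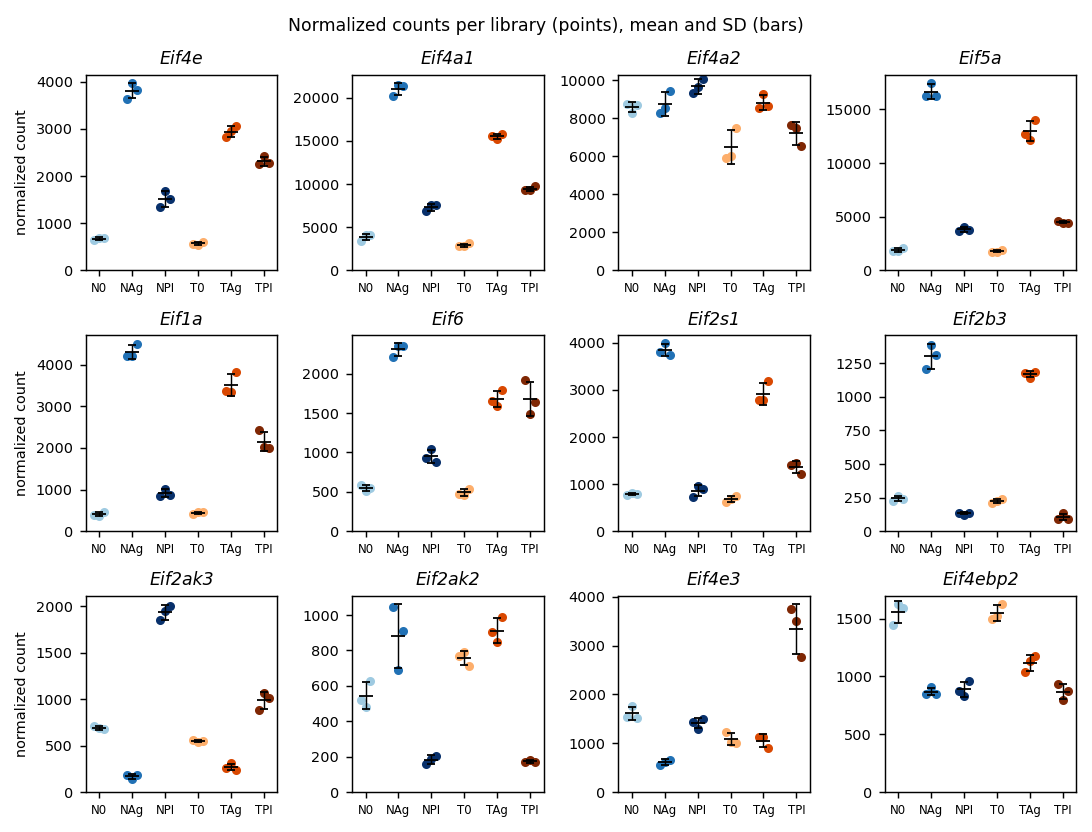
Normalized counts (y axis, from 0) of 12 genes in each library (points) with the mean and SD (bars, n = 3) for the 6 groups. *Eif4e*, *Eif4a1*, *Eif5a*, *Eif1a*, *Eif6*, *Eif2s1* and *Eif2b3* are highest in NAg, while *Eif2ak3* is lowest there and *Eif4ebp2* is highest in N0 and T0.

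The 4E-BPs did not rise with their target. *Eif4ebp2* had 1448, 1628 and 1593 in N0, 852, 905 and 850 in NAg and 875, 828 and 959 in NPI. In tolerized cells it had 1500, 1524 and 1629 in T0, 1043, 1131 and 1179 in TAg and 934, 798 and 876 in TPI. All stimulated libraries lay below all unstimulated ones, and the log2 fold change was -0.84 ± 0.08 in NAg, -0.47 ± 0.08 in TAg, -0.81 ± 0.08 in NPI and -0.83 ± 0.08 in TPI. *Eif4ebp1* was counted at 9.40 to 47.0 in all libraries and passed no test of a stimulus. *Eif4ebp3* was as low, from 5.50 to 59.9, and passed in NPI (-1.56 ± 0.34) and TPI (-1.14 ± 0.32), but it shares 501 exonic bases with *Ankhd1*.

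All eIF3 genes but *Eif3f* were higher after Ag, 12 of 13 in NAg and 12 of 13 in TAg, with medians of 1.64 and 1.45, and with library totals 12 were higher and 1 lower in each. The rises were uneven. *Eif3b* (2.47 ± 0.07), *Eif3j* (2.25 ± 0.07) and *Eif3g* (2.22 ± 0.08) rose most in NAg, whereas *Eif3e* (0.75), *Eif3h* (0.60) and *Eif3k* (0.64) rose by less than 1 on the log2 scale. *Eif3f* had 2132, 2120 and 2387 in N0 and 2501, 2272 and 2395 in NAg, which overlapped. *Eif3j*, whose product is loosely attached to the complex, had 550, 671 and 598 in N0 and 2918, 2949 and 2767 in NAg. It shares 1107 exonic bases with *Spg11* on the other strand, and the near copy *Gm9781* held 0.933% to 3.06% of its counts.

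After PI most eIF3 genes were higher too. With TMM, 12 of 13 were higher in NPI (median 0.83) and 13 of 13 in TPI (0.97), while with library totals 8 were higher and 1 lower in NPI and 7 higher and 3 lower in TPI. *Eif3f*, which did not pass after Ag, had 4495, 4285 and 4332 in NPI and 3760, 3481 and 3689 in TPI, a log2 fold change of 0.98 ± 0.08 and 0.91 ± 0.08. *Eif3e* had 4406, 4592 and 4783 in NPI, beside 4215, 4228 and 4454 in NAg, and these groups overlapped.

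**Figure D4:**
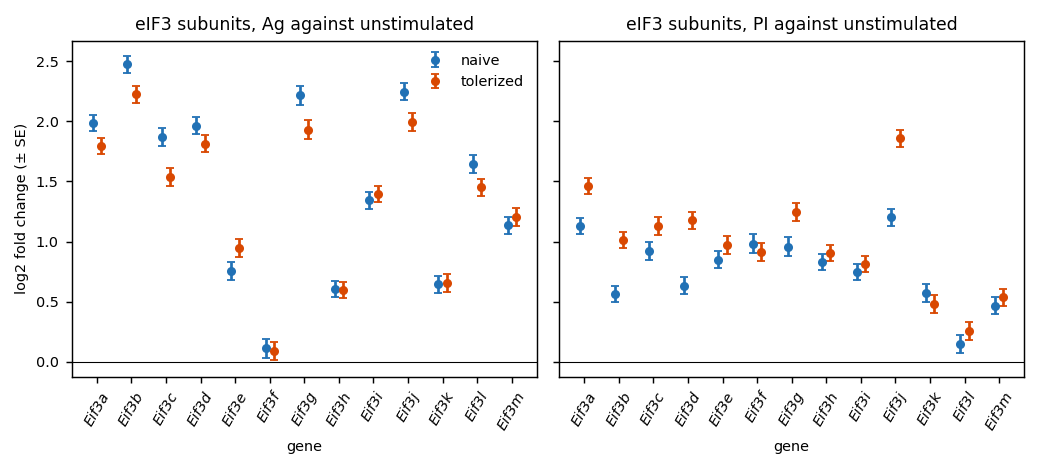
Log2 fold change with its SE (y axis) of the 13 eIF3 genes (x axis) after Ag (left) and PI (right), in naive and tolerized cells, with TMM scaling. After Ag the values run from 0.09 to 2.47, and after PI from 0.15 to 1.86. With library totals 3 eIF3 genes in TPI were called lower.

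*Eif2s1* and *Eif2s2*, which encode the α and β subunits of eIF2, rose after Ag. *Eif2s1* had 770, 816 and 780 in N0, 3815, 3990 and 3743 in NAg and 725, 957 and 891 in NPI. Tolerized cells gave 620, 674 and 749 in T0, 2786, 2784 and 3191 in TAg and 1408, 1459 and 1221 in TPI. It was 4.88-fold higher in NAg and 4.29-fold higher in TAg, while NPI overlapped N0 (0.12 ± 0.09 with TMM, -0.46 with library totals) and TPI was 2.0-fold higher than T0. *Eif2s2* had 726, 789 and 823 in N0, 3278, 3603 and 3735 in NAg and 2272, 2464 and 2395 in NPI, and it was the gene with the largest rise in NPI (1.61 ± 0.08). *Eif2d*, which can deliver initiator tRNA without eIF2, did not pass after Ag and fell by 1.10 ± 0.09 in NPI and by 0.91 ± 0.09 in TPI.

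The eIF2B genes split by stimulus. After Ag, 4 of 5 were higher in each cell state, and after PI none was higher and 3 were lower in each, while with library totals 3 were higher and 1 lower after Ag and 5 lower after PI in each. *Eif2b3*, the γ subunit, had 225, 265 and 243 in N0, 1205, 1385 and 1312 in NAg and 136, 123 and 136 in NPI. The tolerized libraries held 213, 224 and 238 in T0, 1175, 1141 and 1185 in TAg and 92.1, 135 and 89.3 in TPI. No groups of different stimulus overlapped within a cell state, and the log2 fold change was 2.41 ± 0.11 in NAg, 2.38 ± 0.11 in TAg, -0.89 ± 0.12 in NPI and -1.11 ± 0.12 in TPI. *Eif2b1* had the same directions, from 275, 241 and 272 in N0 to 388, 495 and 507 in NAg and 162, 183 and 150 in NPI. *Eif2b5*, the catalytic subunit, rose by 1.42 in NAg and 1.27 in TAg. *Eif2b2* passed in no response.

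The kinases of eIF2α moved apart from each other. *Eif2ak3*, which encodes PERK, the kinase of endoplasmic reticulum stress, had 714, 686 and 675 in N0, 186, 141 and 186 in NAg and 1847, 1950 and 2005 in NPI. Its counts in tolerized cells were 560, 536 and 546 in T0, 261, 310 and 241 in TAg and 884, 1068 and 1011 in TPI. It fell 4.04-fold in NAg and 2.03-fold in TAg and rose 2.80-fold in NPI and 1.80-fold in TPI, with no overlap. *Eif2ak2*, which encodes the double-stranded RNA sensor PKR, had 521, 482 and 629 in N0, 1046, 688 and 907 in NAg and 157, 189 and 204 in NPI. It had 766, 790 and 715 in T0, 903, 845 and 989 in TAg and 167, 182 and 172 in TPI. The fall after PI was 1.57 ± 0.14 in NPI and 2.12 ± 0.13 in TPI on the log2 scale. With TMM the rise after Ag passed in NAg (0.69 ± 0.12) and not in TAg (0.27 ± 0.12, or -0.06 with library totals). Of the 4 eIF2 kinases, 3 were higher in NAg with TMM and 1 with library totals, so most of these rises in NAg depended on the scaling.

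*Eif2ak4*, which encodes the amino acid sensor GCN2, had 386, 459 and 435 in N0 and 780, 872 and 715 in NAg, and 445, 473 and 458 in T0 and 814, 762 and 754 in TAg. It was 1.85-fold and 1.69-fold higher after Ag. Its rise after PI with TMM (0.26 in NPI and 0.39 in TPI) was a fall with library totals (-0.31 and -0.41). *Eif2ak1*, the heme-regulated kinase, changed by 0.47 in NAg, 0.29 in TAg, -0.34 in NPI and -0.43 in TPI, the value in TAg being -0.04 with library totals, and it shares 487 exonic bases with *Aimp2*.

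Among the genes of start site selection, 5 of 6 were higher in NAg and 6 of 6 in TAg. *Eif1a* had the largest rise of all 54 genes after Ag. It had 400, 370 and 467 in N0, 4208, 4212 and 4493 in NAg and 842, 1018 and 862 in NPI. In tolerized cells it had 410, 450 and 466 in T0, 3364, 3340 and 3823 in TAg and 2423, 2029 and 2006 in TPI. These were 10.4-fold and 7.95-fold rises after Ag and 2.20-fold and 4.88-fold rises after PI. The X-linked gene *Eif1ax*, left out of the 54, had a mean count of 928 beside 1879 for *Eif1a*. Sharing of reads between them was not tested. *Eif1*, the main scanning factor gene, was the most abundant of them per kilobase in every group. With TMM it rose more after PI (1.15 ± 0.11 in NPI, 1.53 ± 0.11 in TPI) than after Ag (0.84 ± 0.11 in NAg, 0.62 ± 0.11 in TAg). In naive cells this order depended on the fit. In NPI against NAg, 1 of the 6 genes was higher with TMM, and 0 with library totals or with marker levels as covariates. In TPI against TAg, 2 were higher under each of these 3 fits. *Eif1b*, the paralog of *Eif1*, had 278, 286 and 256 in N0 and 312, 289 and 339 in NAg, which did not pass, and 162, 176 and 165 in NPI, a fall of 0.71 ± 0.12.

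*Eif5a*, which encodes a factor that carries hypusine and helps the ribosome through difficult stretches, had 1803, 1790 and 2108 in N0, 16255, 17454 and 16211 in NAg and 3619, 4018 and 3786 in NPI. Tolerized cells gave 1679, 1736 and 1865 in T0, 12718, 12147 and 13970 in TAg and 4568, 4435 and 4420 in TPI. It was 8.76-fold higher in NAg and 7.36-fold higher in TAg, and 2.0-fold and 2.54-fold higher after PI. *Eif5a2* had a mean of 25.5 normalized counts per kb in N0 beside 800 for *Eif5a*, and it did not pass after Ag. *Eif6*, which encodes a factor that keeps the large ribosomal subunit from joining too early, had 592, 515 and 551 in N0, 2217, 2355 and 2356 in NAg and 929, 1042 and 884 in NPI. It had 477, 460 and 540 in T0, 1648, 1592 and 1787 in TAg and 1914, 1483 and 1642 in TPI, so that TPI overlapped TAg while NPI lay below NAg.

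Of the Argonaute genes, *Eif2c2* (Ago2, the slicing Argonaute) had 6461, 6499 and 6161 in N0, 19758, 21567 and 21445 in NAg and 14346, 17277 and 16974 in NPI. The tolerized libraries held 5388, 5350 and 5833 in T0, 12875, 12500 and 13484 in TAg and 24530, 24744 and 25089 in TPI. The order of Ag and PI was thus opposite in the 2 cell states. *Eif2c4* (Ago4) fell under each stimulus, from 114, 55.3 and 57.5 in N0 to 36.0, 10.6 and 24.2 in NAg, and from 173, 163 and 172 in T0 to 26.4, 32.2 and 44.1 in TAg. *Eif2c1* (Ago1) fell by 0.61 ± 0.07 in NAg and did not pass in TAg (-0.11 ± 0.07).

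PI was set directly against Ag after these values were seen. In NPI against NAg, 7 genes were higher (33.5% of all tested genes were) and 38 lower (31.0%), and in TPI against TAg, 10 were higher (31.5%) and 36 lower (32.3%). Both comparisons gave 32 genes as lower, and the share of all tested genes lower in both was not counted. The medians were -0.85 and -0.52, beside 0.08 and 0.01 for all tested genes. Among the genes lower after PI, *Eif2b3* differed most (-3.30 ± 0.11 and -3.49 ± 0.12), then *Eif2ak2* (-2.26 and -2.39). *Eif2ak3* was higher after PI by 3.5 ± 0.11 and 1.87 ± 0.10. Injection in the mouse and culture differ along with the stimulus here. So does sex, wholly in NPI against NAg and in part in TPI against TAg, where of the TAg libraries only replicate 3 expressed *Ddx3y*. None of these can be told apart from the stimulus.

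Fewer of these genes differed between resting tolerized and naive cells. In T0 against N0, 3 genes were higher (8.42% of all tested genes were) and 17 lower (12%), with a median of -0.17 beside -0.08. The 17 included *Eif4e3* (-0.56 ± 0.12), *Eif3e* (-0.41 ± 0.07), *Eif4a1* (-0.40 ± 0.07) and *Eif4a2* (-0.40 ± 0.08), and *Eif3e* had 1755, 1904 and 2078 in T0 below 2418, 2541 and 2685 in N0. *Eif2c4*, *Eif4ebp1* and *Eif2ak2* were higher, by 1.16, 0.88 and 0.48. The markers of neutrophils moved with this comparison, and the 9 erythroid markers found had sums of 34.5 to 216 in N0 and 239 to 2322 in T0. With marker levels as covariates (1 erythroid and 1 myeloid, the latter pooling neutrophil with macrophage and monocyte markers) no gene passed in either direction. *Eif2c4*, *Eif4ebp1* and *Eif2ak2* were then at -1.20, -0.003 and -0.25. The neutrophil markers had a mean log2 level of 3.12 in N0 and 7.70 in T0, and of 4.10 in NAg and 7.72 in TAg. A fit with such covariates therefore cannot separate marker levels from cell state. The part of other cells in this comparison was not tested further. With the Y-linked level as a covariate 1 gene was higher and 6 were lower, and between 9 (without N0 replicate 3) and 25 were lower with single libraries left out.

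After Ag, tolerized cells had lower levels of many of these genes than naive cells. In TAg against NAg, 35 of 54 were lower (18.5% of all tested genes were) and 5 higher (20.9%), and the median was -0.24 beside 0.01. With TMM all 13 eIF3 genes were lower, with *Eif3j* at -0.54 ± 0.07 the most, while 5 of the 13 were lower with library totals and 2 with marker levels as covariates. The sizes were small, and none of the 35 reached 2-fold. Of the 54 genes, 11 were lower with marker levels as covariates and 18 with library totals, where *Eif4b* was at 0.0007. The median of the 54 genes minus that of all tested genes was -0.26 with TMM and with library totals. The neutrophil sum was 2240 to 3955 in TAg and 137 to 367 in NAg. Sex differed in part too, as TAg replicate 3 expressed *Ddx3y* and no NAg library did, so it cannot be told apart from cell state. With the Y-linked level as covariate 31 genes were lower and 6 higher. Higher in TAg were *Eif4e3* (0.79), *Eif2ak3* (0.66), *Eif2c1* (0.38), *Eif4ebp2* (0.36) and *Eif4enif1* (0.21).

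The difference of the Ag response, tolerized minus naive, was tested as an interaction, and 6 genes had a positive difference (14.6% of all tested genes did) and 3 a negative one (7.09%). The median difference was -0.15 beside 0.05 for all tested genes. The negative count was the less stable, at 7 with DESeq2 size factors, 13 with DESeq2, and 1 (without NAg replicate 3, T0 replicate 3 or TAg replicate 2) to 6 (without NAg replicate 1) with single libraries left out, while 3 were positive with marker levels as covariates. *Eif4e3* (1.35 ± 0.17) and *Eif2ak3* (1.0 ± 0.14) led, and both had fallen less in tolerized cells. *Eif1b* followed with 0.67 ± 0.16, from 191, 186 and 249 in T0 to 331, 420 and 393 in TAg. The cap-binding genes *Eif4e* (-0.13 ± 0.11), *Eif4a1* (-0.04 ± 0.10) and *Eif4g1* (-0.06 ± 0.09) did not pass, which does not show that their responses were equal. T0 replicates 1 and 2 and TAg replicate 3 expressed *Ddx3y*, so sex cannot be told apart from the difference of the Ag response. With the Y-linked level as covariate 6 genes had a positive difference and 4 a negative one, and *Eif1a* no longer passed.

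After PI the balance between tolerized and naive cells depended on the scaling. TPI against NPI gave 19 genes higher (18.2% of all tested genes were) and 14 lower (19.7%) with TMM, and 15 and 19 with library totals. Of the genes lower, 3 passed with marker levels as covariates, and 9 (without TPI replicate 3) to 11 passed with single libraries left out. Of the 9 neutrophil markers 6 were higher in TPI than in NPI, and their part was not tested further. The difference of the PI response was positive for 18 genes (12.7%) and negative for 3 (7.52%), with a median of 0.18 beside -0.04, while with library totals 13 were positive and 13 negative. Of the 12 cap-binding and helicase genes 7 were among the 18. The largest were *Eif4e3* (1.80 ± 0.16), *Eif1a* (1.15 ± 0.14), *Eif6* (0.99 ± 0.13), *Eif2s1* (0.88 ± 0.13) and *Eif4e* (0.86 ± 0.11). *Eif2ak3*, *Eif2ak2* and *Eif2b4* had negative differences, of -0.63, -0.56 and -0.75, and *Eif2b4* had 253, 254 and 266 in T0 and 144, 175 and 145 in TPI, beside 307, 286 and 282 in N0 and 326, 269 and 285 in NPI. N0 and NPI differ in the sex of the mice and T0 in part, so sex cannot be told apart from this difference. With the Y-linked level as covariate, *Eif2ak2* and *Eif2c3* no longer passed.

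**Figure D5:**
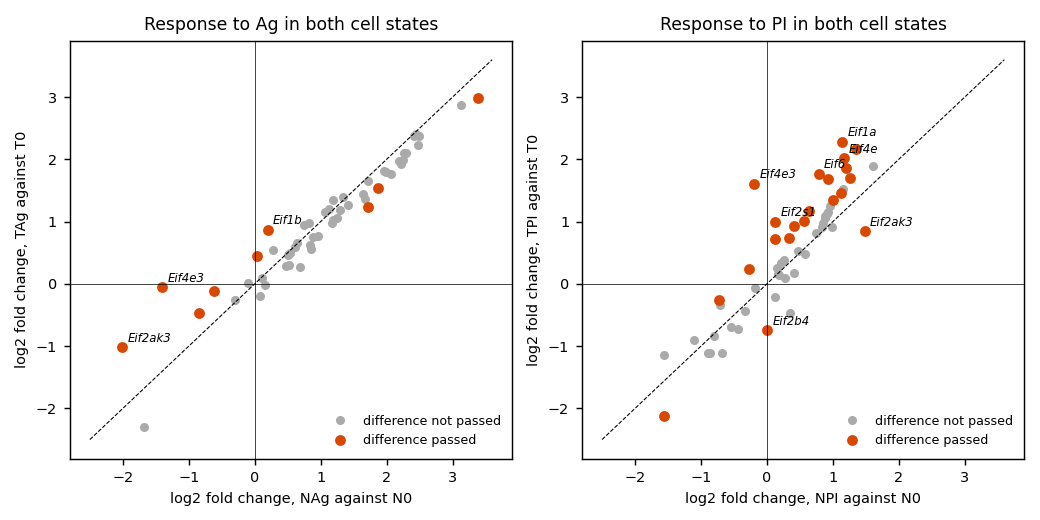
Log2 fold change in tolerized (y axis) against naive cells (x axis) of the 54 genes after Ag (left) and PI (right), with TMM scaling. Orange points passed the test of the difference, and the dashed line marks equal responses. After PI 18 of the 21 orange points lie above the line, with *Eif4e3* farthest from it at 1.80, whereas with library totals 13 genes passed in each direction.

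Other genes of translation, in lists drawn up for description, were tested in the same fit. With TMM, of 26 partners and regulators of initiation, 17 were higher and 6 lower in NAg (of all tested genes 32.1% and 33.4% were), 16 and 6 in TAg (29.9% and 29.8%), 18 and 4 in NPI (28.6% and 32.7%) and 20 and 4 in TPI (32.0% and 36.3%). Of 12 genes of elongation and termination, 10 were higher and 1 lower in NAg, 11 and 1 in TAg, 6 and 2 in NPI and 10 and 2 in TPI. The balance after PI depended on the scaling here too. With library totals, an alternative added here after the values were seen, the partners and regulators gave 16 and 8 in both NAg and TAg and 8 and 10 in both NPI and TPI, and elongation and termination gave 8 and 1, 9 and 1, 6 and 6, and 6 and 4. *Larp1*, which binds the mRNAs of ribosomal proteins, rose by 3.18 ± 0.08 in NAg and 2.61 ± 0.08 in TAg, and *Eef1e1* by 3.11 ± 0.10 and 2.85 ± 0.10. *Mknk2*, a kinase of eIF4E, fell by 1.79 ± 0.10 in NAg and 1.57 ± 0.10 in TAg, *Paip2* fell by 1.80 ± 0.08 in NAg, and *Pdcd4*, an inhibitor of eIF4A, fell by 2.29 ± 0.19 in TAg. After PI the largest rises were of *Ppp1r15a*, which directs the removal of phosphate from eIF2α (2.82 ± 0.28 in NPI and 2.76 ± 0.28 in TPI), and of the termination factor gene *Etf1* (1.82 ± 0.08 and 2.72 ± 0.08). *Eef2k*, the kinase of the elongation factor eEF2, fell by 0.98 ± 0.12 and 1.65 ± 0.12, *Mcts1* fell by 1.32 ± 0.10 in NPI, and *Mknk1* fell by 1.46 ± 0.10 in TPI.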

How the data were processed

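RNA was isolated from CD4+ T cells, depleted of ribosomal RNA and sequenced with paired ends. The authors aligned reads with TopHat2 2.1.1 to mm9 and counted them per Ensembl gene with HTSeq 0.9.1, and the deposited values are these unnormalized counts, 1 file per library. The strand setting is not given in the sources used here. The 54 genes and all lists were chosen with earlier results of these data known.

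Counts were scaled by TMM and fitted in edgeR 4.0.16 (R 4.3.3) with 6 group means, and contrasts were tested with the robust quasi-likelihood F test in the 17240 genes whose mean normalized count reached 3 in any group. Adjusted p is the Benjamini-Hochberg value over these genes, and higher, lower, rose or passed means an adjusted p under 0.05. The SE of a log2 fold change was approximated as its absolute value divided by the square root of the F statistic. Differences of responses were interaction contrasts. Any of the 54 genes may be named. Values per library are given for the 3 largest rises and falls of each comparison, the 4 largest differences of response and 11 factors at regulated steps. Alternatives were DESeq2 1.42.0, other scaling, covariates, a replicate block and left-out libraries. Promoter windows were from RefSeq. The code was tested on simulated data.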

Additional observations from a re-analysis of the deposited data

Results flagged for a closer look

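The response to a stimulus differed between tolerized and naive cells for 9 genes after Ag and 21 after PI, by edgeR's interaction contrast at an adjusted p under 0.05. After Ag the differences in log2 fold change, tolerized minus naive, were those of *Eif4e3* (1.35), *Eif2ak3* (1.0), *Eif1b* (0.67), *Eif2c1* (0.50), *Eif4a2* (0.41), *Eif4ebp2* (0.37), *Eif3c* (-0.33), *Eif1a* (-0.39) and *Eif2c2* (-0.49). Of these, *Eif4e3* changed by -1.40 in naive and -0.06 in tolerized cells, and *Eif2ak3* by -2.02 and -1.02.

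After PI the differences were those of *Eif4e3* (1.80), *Eif1a* (1.15), *Eif6* (0.99), *Eif2s1* (0.88), *Eif4e* (0.86), *Eif2c2* (0.82), *Eif4a1* (0.76), *Eif3j* (0.66), *Eif4e2* (0.60), *Eif3d* (0.55), *Eif4g1* (0.52), *Eif4enif1* (0.51), *Eif2c3* (0.47), *Eif3b* (0.45), *Eif5* (0.44), *Eif4h* (0.40), *Eif5a* (0.34), *Eif3a* (0.34), *Eif2ak2* (-0.56), *Eif2ak3* (-0.63) and *Eif2b4* (-0.75). *Eif4e3* changed by -0.19 in naive and 1.61 in tolerized cells, and *Eif2b4* by 0.01 and -0.74. *Eif2ak3* and *Eif4e3* passed under each of the 8 alternatives and with each of 12 libraries left out, in both responses. *Eif1a* after Ag passed under 5 of 8 alternatives and with 5 of 12 libraries left out, and *Eif2ak2* after PI under 6 of 8 and with 2 of 12. *Eif3c* after Ag passed with 6 of 12 libraries left out, and *Eif2c1*, *Eif4a2* and *Eif4ebp2* after Ag did not pass with marker levels as covariates. After PI, *Eif5a* passed under 5 of 8 alternatives and with 10 of 12 libraries left out, *Eif3a* and *Eif2c3* under 6 of 8, and *Eif4h* and *Eif5* under 7 of 8, library totals being among those under which these 5 genes did not pass. Groups of 3 libraries are too small for a test of single outlying values.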

How the results depend on the processing

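With the 2-fold limit and an average count above 50, genes lower in NAg, higher in TAg, and higher and lower in NPI and in TPI were 3, 27, 10, 2, 19 and 4, those higher in T0, TPI against NPI, and the differences of the Ag and PI response were 1, 2, 1 and 2, those higher and lower in NPI against NAg were 2 and 20 and in TPI against TAg 3 and 12, and those lower in T0 and higher or lower in TAg against NAg, and lower in TPI against NPI and both differences, were 0. With library totals, genes lower in NAg and TAg were 10 and 9, higher and lower in NPI 21 and 27, in TPI 22 and 26 and in TAg against NAg 8 and 18, lower in T0 4, higher and lower in the difference of the PI response 13 and 13, and higher in NPI against NAg and TPI against TAg 3 and 6. With marker levels as covariates, T0 gave 0 and 0, TAg against NAg 11 lower, TPI against NPI 3 lower, the difference of the Ag response 3 higher and NPI against NAg 4 higher. In T0, 1 was higher and 6 lower with the Y-linked level and 6 lower with only the groups compared, which also gave 6 lower in the difference of the PI response. Genes lower in the difference of the Ag response were 7 with DESeq2 size factors and 13 with DESeq2. Without the Argonaute genes 3 were lower in NAg, and without overlapping genes 8 and 6 were lower in NPI and TPI, 11 in T0, 1 in the difference of the PI response and 25 in NPI against NAg.

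With single libraries left out, T0 gave 1 (without N0 replicate 2) to 3 higher and 9 (without N0 replicate 3; 10 without T0 replicate 1) to 25 lower, TPI against NPI 9 (without TPI replicate 3) to 11 lower, and the difference of the Ag response 1 (without NAg replicate 3, T0 replicate 3 or TAg replicate 2) to 6 (without NAg replicate 1) lower. Those in NAg were 40 to 42 higher and in TAg 42 to 43.

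The sign changed with library totals for *Eif4ebp1* in NAg (-0.32) and NPI (-0.22), *Eif2ak2* in TAg (-0.064), *Eif4g1* (-0.16), *Eif2s1* (-0.46) and *Eif2ak4* (-0.31) in NPI and *Eif2ak4* in TPI (-0.41), and with marker levels for *Eif4ebp1* in NAg (-0.28), TPI (0.28) and T0 (-0.0026), *Eif2c4* in T0 (-1.20) and TPI against NPI (-0.80) and *Eif2ak2* in T0 (-0.25). With single libraries left out *Eif4ebp1* ran from -0.34 (without N0 replicate 2) to 0.27 in NAg, with -0.04 without NAg replicate 1, and from -0.063 (without N0 replicate 2) to 0.55 in NPI. The cause was not tested.

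Same-numbered libraries did not deviate together (correlations -0.195 to 0.11), so the numbers do not pair them, and with a replicate block 41 genes were higher in NAg, 42 in TAg, 32 in NPI and 34 in TPI. Low counts limit *Eif4ebp1*, *Eif4ebp3* and *Eif2c4* most.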
